A study of Mus musculus with 4 samples.

Results

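The 10 genes described here encode subunits of the mTOR kinase complexes, proteins that switch them on or off, and kinases that carry their signal. They are Mtor, Rptor, Rictor, Mlst8, Akt1s1, Tsc1, Tsc2, Rheb, Rps6kb1 and Rps6kb2. The genes were picked by name, with earlier results of these data known. Each of the 10 was found as 1 of the 18169 rows of the deposited expression table. All 10 were abundant enough to be tested, among 12576 rows in total.

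The table comes from RNA sequencing of neural stem/progenitor cells (NSCs) taken from C57BL/6 mice and grown as primary cultures, 2 samples of genotype +/+ and 2 of genotype Chd5-/-. Chd5 encodes a chromatin remodeller with a chromodomain and a helicase domain, and its loss was the only genetic difference that the labels give. Each culture was started from the periventricular region, with the ventricular and subventricular zones, of 1 newborn brain and was grown in medium with epidermal growth factor and fibroblast growth factor 2, so both genotypes were under growth factor stimulation. The growth protocol gives postnatal day 1 for every culture. The age entries of the labels instead give day 1 and day 2 to the +/+ cultures, and day 3 and day 4 to the Chd5-/- cultures, so that by these entries age and genotype cannot be told apart.

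mTOR is a protein kinase that works in a pair of complexes. Complex 1 is defined by Rptor, takes in amino acid, growth factor and energy signals at the lysosome, and drives protein synthesis while it restrains autophagy. Complex 2 is defined by Rictor and phosphorylates Akt and related kinases. In neural progenitors this pathway is known for its part in growth, in the exit from quiescence and in the balance between self-renewal and differentiation. These are RNA levels, and neither protein amount nor phosphorylation was measured.

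Values are in TPM, a measure scaled for transcript length and to a fixed total per sample, so levels can be compared between genes. Pairs of values are given in the order replicate 1, replicate 2. TPM holds no record of read number, which leaves the depth unknown and counting errors out of reach. Chd5 itself was at 0.39 and 0.37 TPM in +/+ and at 0.06 and 0.04 TPM in Chd5-/- NSCs, lower in both as labelled, but all values lay under the minimum mean of 1 TPM for a test. All 10 NSC markers examined were present at a mean of at least 1 TPM, with sums of 9908 and 8258 TPM in +/+ but 4026 and 6958 TPM in Chd5-/- NSCs. The 2 of 5 microglial and 2 of 4 endothelial markers analysed summed to at most 0.70 TPM per cell type in every sample. The 5 mesenchymal markers summed to 12.15 TPM in Chd5-/- replicate 1 and to at most 0.13 TPM elsewhere. Neuronal, astrocytic and oligodendrocyte lineage markers were present in all samples, and each of these sums was highest in Chd5-/- replicate 2. The part of these marker differences in the results below was not tested.

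The RefSeq table of GRCm38.p6 gave a promoter window for 9 of the 10 genes. The 120 bases immediately before the start are shown for 4 genes whose stretch overlaps no annotated exon, so that a gene lower in Chd5-/- NSCs (Rps6kb1) can be set beside genes that were higher. Each runs 5′ to 3′ on the strand of the gene, and capitals mark a GC box (GGGCGG on either strand).
Mtor (chr4:148448462-148448581, plus strand): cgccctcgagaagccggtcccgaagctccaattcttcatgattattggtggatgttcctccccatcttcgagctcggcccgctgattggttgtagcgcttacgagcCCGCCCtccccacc
Rptor (chr11:119602785-119602904, plus strand): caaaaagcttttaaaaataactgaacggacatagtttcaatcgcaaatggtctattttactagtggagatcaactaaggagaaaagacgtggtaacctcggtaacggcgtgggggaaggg
Mlst8 (chr17:24479079-24479198, minus strand): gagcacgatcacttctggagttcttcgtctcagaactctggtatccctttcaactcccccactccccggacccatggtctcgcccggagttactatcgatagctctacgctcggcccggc
Rps6kb1 (chr11:86544808-86544927, minus strand): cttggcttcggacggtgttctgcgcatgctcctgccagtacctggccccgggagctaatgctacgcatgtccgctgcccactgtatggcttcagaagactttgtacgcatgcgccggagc

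Over the 250 bases before the start, the GC box was found in 4 of the 9 windows (Mtor, Rictor, Akt1s1 and Rheb), against 32.7% of the 32851 windows in the table. The ETS core CCGGAAG was found in 3 (Mtor, Akt1s1 and Tsc2), against 6.9% of windows. The CCAAT box was found in Mtor and Rictor, against 33.8%. TATAAA and TGACGT were in none of the 9, against 12.4% and 6.5% of windows. The E-box CACGTG was found only in Rheb among the 9, against 6.0% of windows. All motifs were searched on both strands, and each was counted whether or not it overlapped another. For Mtor and Akt1s1 the bases just after the RefSeq start were not found in an annotated transcript of the gene. The Akt1s1 window (chromosome 7, 44850122 to 44850421) lies inside the annotated gene, so its GC box and ETS core do too. The Rheb window (chromosome 5, 24842312 to 24842611) also lies inside the annotated gene (24802823 to 24842624). Its GC box, E-box and CpG dinucleotides are thus within the annotated gene too. The Rheb E-box starts 96 bases before the RefSeq start and is shown in capitals with its flanks.
Rheb (chr5:24842440-24842469, minus strand): gccgcgcgcggtCACGTGggtgtgttgttg
All 9 windows held more CpG dinucleotides than the median window of the table (6), from 9 in Rptor to 37 in Rheb and 40 in Rictor. Rheb, with a GC box and the E-box, and Rps6kb1, with none of the 6 motifs, were the genes with lower values in Chd5-/- NSCs. Rptor, Mlst8 and Tsc1, with higher values, also held none of the 6.

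Across the members, 7 of the 10 genes had both Chd5-/- values above both +/+ values, 2 (Rheb and Rps6kb1) had both below, and 1 (Rictor) overlapped. Among all 12576 rows tested, 46.3% were higher without overlap and 13.0% lower without overlap. With limma on log2(TPM + 1), 0 of the 10 genes had a Benjamini-Hochberg adjusted p-value under 0.05, against 0.0557% of all rows. At an unadjusted p-value under 0.05, 3 of the 10 were higher (Rptor, Akt1s1 and Rps6kb2), against 21.9% of all rows, and 0 were lower, against 2.27% of all rows. The count of 3 members fell with either +/+ replicate or Chd5-/- replicate 2 left out, and rose without Chd5-/- replicate 1. Over all rows the counts fell with either +/+ replicate left out and rose with either Chd5-/- replicate left out. With median-of-ratios scaling the split turned over, to 0 higher (11.1% of all rows, 1391 of 12576) and 2 lower, Rheb and Rps6kb1 (1507 of the same 12576 rows). After removal of trends with GC content and transcript length it was 0 higher (4.86% of all rows) and 1 lower, Rheb (5.54% of all rows). No test sets these counts apart from the shares of the whole table.

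The median log2 fold change (Chd5-/- minus +/+) of the 10 members was 0.61, with a range from -0.47 to 0.98, beside a median of 0.34 over all rows. That shift of all rows depended on the scaling, since median-of-ratios scaling moved it to -0.032 and the members' median to 0.22. With that scaling the split of all rows at an unadjusted p-value under 0.05 went from 2748 higher and 285 lower to 1391 higher and 1507 lower. The 20 most abundant rows took up 32.4% and 35.6% of all TPM in +/+ NSCs but 21.6% and 22.8% in Chd5-/- NSCs. Values are therefore given as deposited, and for each member also after median-of-ratios scaling. In a bulk sample fewer cells of a type and less RNA per cell cannot be told apart, and each p-value measures only the spread between these cultures.

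**Figure D1:**
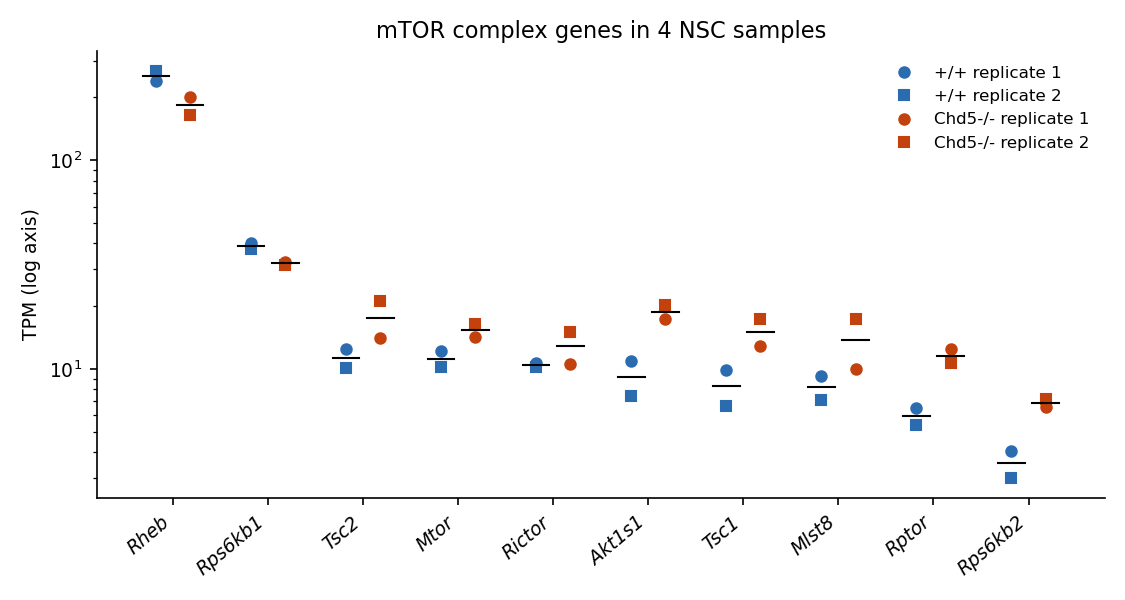
TPM on a log axis of the 10 member genes in each of the 4 samples, ordered by their +/+ mean, with +/+ in blue, Chd5-/- in orange, circles for replicate 1, squares for replicate 2 and a line at each mean. Rheb stands highest at 253.7 TPM in +/+ NSCs and is lower in both Chd5-/- samples, and Rps6kb2 stands lowest at 3.54 TPM and is higher in both.

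The genes differed in level far more than the genotypes did. In +/+ NSCs Rheb was the most abundant at 253.7 ± 19.5 TPM (SD, n = 2), followed by Rps6kb1 at 38.9 ± 1.93 TPM, and both stood apart from the next gene in every sample. Tsc2, Mtor, Rictor, Akt1s1, Tsc1 and Mlst8 followed with means from 11.3 down to 8.20 TPM, and each overlapped its neighbour in this order. Rptor (5.95 TPM) and Rps6kb2 (3.54 TPM) were the lowest and did not overlap each other or Mlst8. In Chd5-/- NSCs Rheb, Rps6kb1 and Rps6kb2 kept their places in the order, at means of 183.3, 32.0 and 6.88 TPM. The 7 genes between them lay within 18.8 TPM (Akt1s1) and 11.6 TPM (Rptor), each overlapping its neighbour.

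Mtor encodes the kinase shared by both complexes and lies on chromosome 4 of GRCm38 (148448611 to 148557683, plus strand). It was at 12.19 and 10.20 TPM in +/+ and at 14.18 and 16.45 TPM in Chd5-/- NSCs. Both Chd5-/- samples were above both +/+ samples, by a small margin. The log2 fold change was 0.42 ± 0.26 (SE, 95% interval -0.25 to 1.09), with an unadjusted p-value of 0.168 and an adjusted p-value of 0.373 (limma, Benjamini-Hochberg). After median-of-ratios scaling it was 0.035, and as deposited it lay 0.082 above the median of all rows.

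Rptor encodes the scaffold that brings substrates to complex 1 (chromosome 11, 119602905 to 119899576, plus strand). It was at 6.48 and 5.41 TPM in +/+ and at 12.44 and 10.73 TPM in Chd5-/- NSCs. The lower Chd5-/- sample was well above the higher +/+ sample, and the means (5.95 ± 0.757 and 11.6 ± 1.21 TPM, SD, n = 2) differed 1.95-fold. The log2 fold change was 0.86 ± 0.28 (SE, 95% interval 0.15 to 1.57), with an unadjusted p-value of 0.0259 and an adjusted p-value of 0.165 (limma, Benjamini-Hochberg). After median-of-ratios scaling it was 0.49, with an unadjusted p-value of 0.0977. The antisense gene Rptoros shares 84 exonic bases with Rptor and was also higher, at 1.32 and 1.49 TPM in +/+ and at 3.83 and 3.29 TPM in Chd5-/- NSCs.

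Rictor encodes the scaffold of complex 2 (chromosome 15, 6708379 to 6800401, plus strand). It was at 10.67 and 10.21 TPM in +/+ and at 10.63 and 15.09 TPM in Chd5-/- NSCs. Chd5-/- replicate 1 lay between the +/+ samples, so the genotypes overlapped and the higher mean came from Chd5-/- replicate 2. The log2 fold change was 0.26 ± 0.29 (SE, 95% interval -0.48 to 0.99), with an adjusted p-value of 0.606 (limma, Benjamini-Hochberg). It was 0.024 without Chd5-/- replicate 2, and turned to -0.12 after median-of-ratios scaling.

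Mlst8 encodes a small subunit that binds the kinase domain in both complexes (chromosome 17, 24473551 to 24479078, minus strand). It was at 9.27 and 7.13 TPM in +/+ and at 10.05 and 17.41 TPM in Chd5-/- NSCs. Only Chd5-/- replicate 2 was far above the +/+ samples, and without it the log2 fold change was 0.27. With all samples it was 0.64 ± 0.36 (SE, 95% interval -0.26 to 1.55), with an adjusted p-value of 0.327 (limma, Benjamini-Hochberg), and after median-of-ratios scaling it was 0.26. Of its 4435 exonic bases, 997 also belong to Bricd5 on the opposite strand, which was at 0.71 and 0.21 TPM in +/+ and at 0.79 and 2.66 TPM in Chd5-/- NSCs.

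Akt1s1 encodes PRAS40, a complex 1 component that inhibits the kinase until Akt phosphorylates it (chromosome 7, 44848991 to 44855421, plus strand). It was at 10.89 and 7.44 TPM in +/+ and at 17.31 and 20.35 TPM in Chd5-/- NSCs. The genotypes were well separated, and with means of 9.16 ± 2.44 and 18.8 ± 2.15 TPM (SD, n = 2) this was the largest fold of the 10, 2.06-fold as deposited. The log2 fold change was 0.98 ± 0.30 (SE, 95% interval 0.23 to 1.74), with an unadjusted p-value of 0.0201 and an adjusted p-value of 0.153 (limma, Benjamini-Hochberg). After median-of-ratios scaling it was 0.60, with an unadjusted p-value of 0.0648 (limma). Of its 3072 exonic bases, 89 are shared with Tbc1d17 on the opposite strand. Tbc1d17 was at 4.11 and 2.35 TPM in +/+ and at 8.78 and 17.95 TPM in Chd5-/- NSCs.

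The rows tested whose profile over the 4 samples was nearest to that of Akt1s1 were Tbc1d22a, Rnf26 and Preb, with Euclidean distances of 0.027, 0.040 and 0.042 in log2(TPM + 1) centred on the row mean. Tbc1d22a was at 2.46 and 1.46 TPM in +/+ and at 4.25 and 5.09 TPM in Chd5-/- NSCs, a like pattern at a lower level. Rnf26 was at 15.25, 10.82, 24.19 and 29.21 TPM in the same order of samples, and Preb at 8.53, 5.75, 13.34 and 16.42 TPM. With 4 samples and 12576 rows, close profiles are easily found.

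Tsc1 encodes hamartin, which stabilises the TSC complex, the main brake on complex 1 (chromosome 2, 28641228 to 28691167, plus strand). It was at 9.87 and 6.68 TPM in +/+ and at 12.85 and 17.39 TPM in Chd5-/- NSCs. The genotypes did not overlap, although the samples of each genotype were far apart. Its log2 fold change was 0.81 ± 0.32 (SE, 95% interval -0.011 to 1.62), with an unadjusted p-value of 0.0523 and an adjusted p-value of 0.211 (limma, Benjamini-Hochberg). After median-of-ratios scaling it was 0.42.

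Tsc2 encodes tuberin, the subunit of that complex which turns Rheb off by speeding its GTP hydrolysis (chromosome 17, 24595816 to 24632630, minus strand). It was at 12.50 and 10.10 TPM in +/+ and at 14.04 and 21.08 TPM in Chd5-/- NSCs. Chd5-/- replicate 1 was only slightly above the higher +/+ sample, and without replicate 2 the log2 fold change was 0.30. With all samples it was 0.57 ± 0.31 (SE, 95% interval -0.21 to 1.36), with an adjusted p-value of 0.316 (limma, Benjamini-Hochberg), and after median-of-ratios scaling it was 0.19. Of its 9620 exonic bases, 693 are shared with Pkd1 on the opposite strand, which was at 19.56 and 15.04 TPM in +/+ and at 30.86 and 25.18 TPM in Chd5-/- NSCs.

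Rheb encodes the small GTPase that activates complex 1 directly when bound to GTP (chromosome 5, 24802823 to 24842624, minus strand). It was at 239.93 and 267.45 TPM in +/+ and at 202.00 and 164.53 TPM in Chd5-/- NSCs. Both Chd5-/- samples were below both +/+ samples, opposite in sign to the median of all rows. This was a log2 fold change of -0.47 ± 0.23 (SE, 95% interval -1.05 to 0.11), with an unadjusted p-value of 0.0919 and an adjusted p-value of 0.273 (limma, Benjamini-Hochberg). Rheb was the only member whose distance from zero grew both under median-of-ratios scaling (-0.89, unadjusted p-value 0.0164) and after trends with GC content and transcript length were removed (-0.65, unadjusted p-value 0.0247). Its highest adjusted p-value over the alternatives tried was 0.853 and its lowest 0.0911, so it never passed the threshold.

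Rps6kb1 and Rps6kb2 encode the ribosomal protein S6 kinases, substrates of complex 1 that act on translation. Rps6kb1 (chromosome 11, 86498871 to 86544805, minus strand) was at 40.31 and 37.58 TPM in +/+ and at 32.64 and 31.45 TPM in Chd5-/- NSCs. The replicates of each genotype lay close together and the Chd5-/- samples were lower, by a log2 fold change of -0.27 ± 0.22 (SE, 95% interval -0.82 to 0.28), with an adjusted p-value of 0.474 (limma, Benjamini-Hochberg). It was -0.68 after median-of-ratios scaling (unadjusted p-value 0.0211, limma). Of the 8658 exonic bases of Rps6kb1, 155 are shared with Rnft1 on the opposite strand. Rnft1 was at 83.14 and 144.76 TPM in +/+ and at 92.63 and 53.42 TPM in Chd5-/- NSCs. Rps6kb2 (chromosome 19, 4153991 to 4163354, minus strand) was at 4.05 and 3.02 TPM in +/+ and at 6.60 and 7.17 TPM in Chd5-/- NSCs. Here both Chd5-/- samples were higher, opposite to its paralogue, by a log2 fold change of 0.81 ± 0.30 (SE, 95% interval 0.035 to 1.58), with an unadjusted p-value of 0.0434 and an adjusted p-value of 0.195 (limma, Benjamini-Hochberg). It was 0.46 after median-of-ratios scaling (unadjusted p-value 0.135). Of the 5167 exonic bases of Rps6kb2, 1224 lie opposite Ptprcap and 45 opposite Coro1b. Coro1b was at 20.98 and 14.42 TPM in +/+ and at 44.24 and 54.85 TPM in Chd5-/- NSCs. The libraries were made with a stranded kit, but whether strand was used in quantification is not given in the sources used here, and without it such reads cannot be assigned to 1 of the genes.

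Ratios between members within a sample do not depend on any scaling that multiplies a whole sample by 1 factor, unlike quantile normalization or the removal of trends. Over the 6 pairs compared, an exact permutation test of 2 against 2 samples cannot give a two-sided p-value under 0.33, and the adjusted values were 0.5 or 0.67. The ratio of Rps6kb1 to Rps6kb2 was 9.95 and 12.4 in +/+ and 4.95 and 4.39 in Chd5-/- NSCs. Both Chd5-/- values were lower, with a log2 difference of -1.26 (exact p = 0.33), or -0.73 after quantile normalization. The ratio of Rheb to its inhibitor Tsc2 was 19.2 and 26.5 in +/+ and 14.4 and 7.80 in Chd5-/- NSCs, a log2 difference of -1.09 (exact p = 0.33). Both Chd5-/- values were lower here too, but the difference was -0.65 without Chd5-/- replicate 2 and -0.69 after quantile normalization.

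The ratio of Rictor to Rptor, which contrasts the scaffolds of the complexes, was 1.65 and 1.89 in +/+ and 0.854 and 1.41 in Chd5-/- NSCs. The genotypes did not overlap, and the log2 difference was -0.69 (exact p = 0.33), from -0.33 without Chd5-/- replicate 1 to -1.05 without Chd5-/- replicate 2. The ratio of Tsc1 to Tsc2 was 0.790 and 0.661 in +/+ and 0.915 and 0.825 in Chd5-/- NSCs, a log2 difference of 0.27 (exact p = 0.33), or 0.14 without +/+ replicate 2. The ratios of Mlst8 to Mtor and of Akt1s1 to Rptor overlapped between genotypes, with log2 differences of 0.25 and 0.10 (exact p = 0.67 for each).

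**Figure D2:**
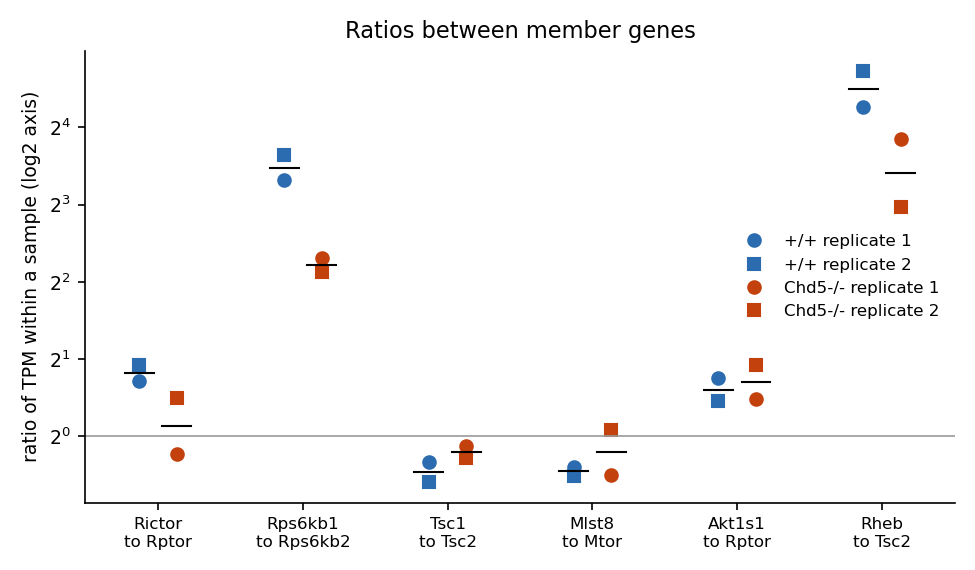
Ratios of TPM between 6 pairs of member genes within each sample, on a log2 axis, with +/+ in blue, Chd5-/- in orange, circles for replicate 1, squares for replicate 2 and a line at each geometric mean. The ratios of Rps6kb1 to Rps6kb2 (geometric means 11.1 and 4.66) and of Rheb to Tsc2 (22.5 and 10.6) are lower in both Chd5-/- samples, and in the other 4 pairs the genotypes lie closer together.

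The members' fold changes were ordered much like the GC content of their transcripts. Over all rows tested with an annotated transcript (11700 rows), Spearman's rho across genes between the log2 fold change and GC content was 0.62, and over the 10 members it was 0.89. Genes share the 4 libraries and are not independent replicates, so these are descriptions. The median log2 fold change went from -0.22 in the decile of rows with the lowest GC content to 1.05 in the decile with the highest. Rps6kb1, at 39.2% GC, was among the poorest in GC of all rows, and Akt1s1, at 61.8%, among the richest (percentiles 3.42 and 98.5). Rictor (42.5%) and Rheb (47.1%) were the next lowest, and the other 6 members lay between 51.7% and 56.5%.

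GC content also followed the difference between the +/+ replicates (replicate 1 minus replicate 2, rho 0.36), but hardly that between the Chd5-/- replicates (rho -0.029). Of the 10 members, 9 were higher in +/+ replicate 1 than in replicate 2, and the exception was Rheb. Their median log2 difference was 0.26, beside 0.14 over all rows, so the whole table was shifted the same way. In Chd5-/- NSCs only Rptor, Rheb and Rps6kb1 were higher in replicate 1, with a median over the members of -0.21, beside -0.0021 over all rows. A trend with GC content was thus also present between the +/+ samples. How far the trend between genotypes is a property of the libraries or of the cells was not tested.

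**Figure D3:**
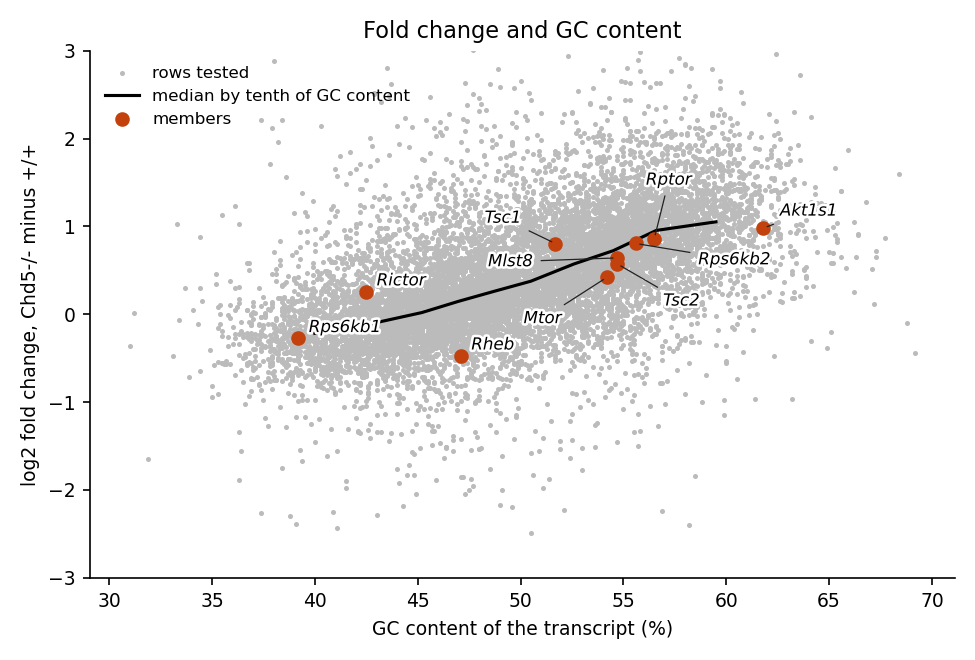
Log2 fold change (Chd5-/- minus +/+) against GC content of the transcript (percent) for rows tested in gray, with the median of each decile of GC content as a line and the 10 members in orange, and with 37 rows beyond the vertical axis not drawn. Rptor, Rps6kb2, Mlst8, Akt1s1 and Rps6kb1 lie near the line or its ends, and Tsc1 and Rictor above it. Mtor and Tsc2 lie below it, and Rheb farthest below.

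When the trends with GC content and transcript length were removed from each sample, the members' median log2 fold change went to -0.054, beside -0.011 over all rows, and 4 of the 10 were above 0. This step removes any difference between genotypes that follows GC content or length, whatever its origin. Rptor went to 0.10, Rps6kb2 to 0.051, Akt1s1 to -0.042, Mlst8 to -0.066, Tsc2 to -0.073, Rps6kb1 to -0.10 and Mtor to -0.23. Tsc1 went to 0.33, Rictor was at 0.26, and Rheb was at -0.65. The ratios after this step are on log2(TPM + 1), unlike those above, which had nothing added to TPM. On that scale the log2 difference of Rps6kb1 to Rps6kb2 shrank from -1.08 to -0.15, and that of Rictor to Rptor turned from -0.60 to 0.15. Rheb to Tsc2 went from -1.05 to -0.58, and Tsc1 to Tsc2 from 0.23 to 0.40. Tsc1, Rheb and Rps6kb1 kept their direction in all 17 alternatives, and Rptor and Rps6kb2 in the 16 that tested them, since their means lie under the alternative minimum of 10 TPM. The other 5 members did not keep theirs.

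**Figure D4:**
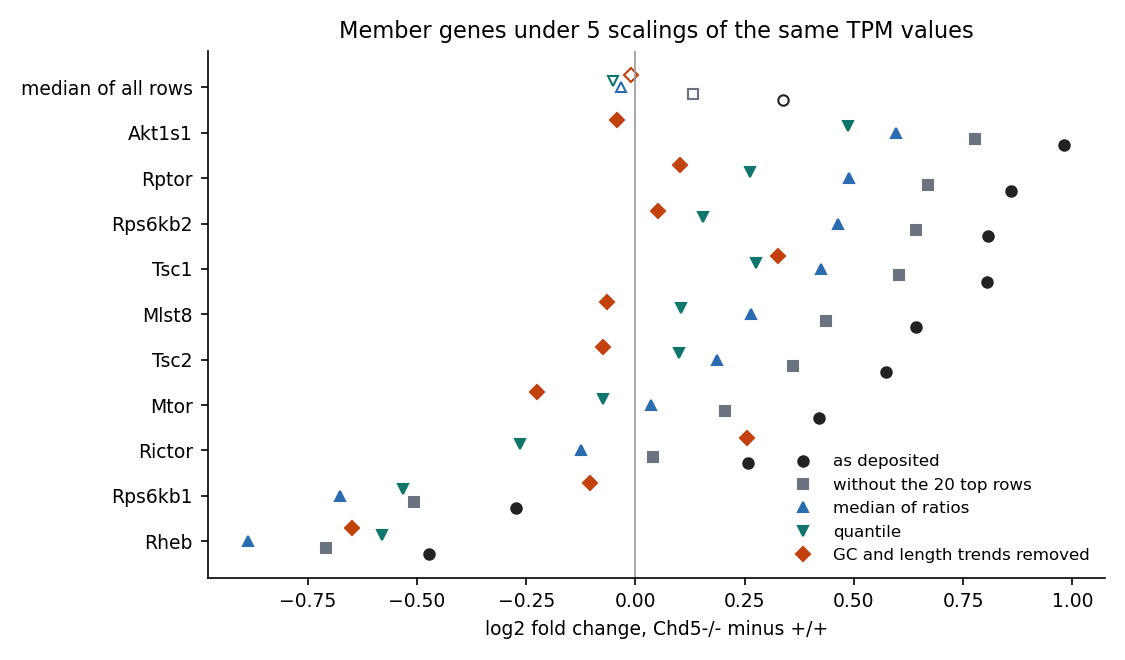
Log2 fold change (Chd5-/- minus +/+) of each member from the deposited TPM and after 4 other scalings, with open symbols for the median of all rows tested. Rheb and Rps6kb1 lie below 0 and Rptor, Tsc1 and Rps6kb2 above 0 with all 5, and Akt1s1, Mlst8, Tsc2, Mtor and Rictor cross 0 with at least 1.

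Lists of a further 89 genes of the pathway, by role, place the members among their partners. Of these, 87 were in the table and 83 were tested. With limma 0 of the 83 had an adjusted p-value under 0.05. At an unadjusted p-value under 0.05, 35 were higher and 1 was lower, against 21.9% and 2.27% of all rows. With median-of-ratios scaling 16 were higher and 7 lower (1391 and 1507 of all 12576 rows), and after removal of GC and length trends 6 were higher and 2 lower (4.86% and 5.54% of all rows). The 36 of the deposited scale became fewer with either +/+ replicate left out, as did the counts over all rows. These counts and shares of all rows, per scaling, are the background for each list below, and "passed" is used there for an unadjusted p-value under 0.05. Without overlap between genotypes 48 were higher and 10 lower, against 46.3% and 13.0% of all rows. The median log2 fold change of the 83 was 0.50, beside 0.34 for all rows. After removal of GC and length trends it was 0.14, with 51 of 82 above 0, beside a median of -0.011 for all rows. Of the 8 other subunits and assembly factors of the mTOR and TSC complexes, 3 passed as higher and 0 as lower, with a median of 0.46, and 0 passed in either direction with median-of-ratios scaling or after trend removal. The largest positive fold change among them was that of Prr5, a subunit of complex 2, at 0.95 and 0.54 TPM in +/+ and at 3.62 and 2.05 TPM in Chd5-/- NSCs (log2 fold change 1.12, adjusted p-value 0.18 with limma). It was 0.88 with median-of-ratios scaling and 0.086 after trend removal.

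The amino acid branch brings complex 1 to the lysosome through the Rag GTPases and their anchor, the Ragulator. Of its 18 activators, 6 passed as higher and 1 as lower, with a median log2 fold change of 0.28, below that of all rows. With median-of-ratios scaling 5 passed as higher and 2 as lower, and after trend removal 2 and 1. The Ragulator subunits Lamtor1, Lamtor2 and Lamtor4 had log2 fold changes of 1.17, 1.30 and 1.40, and each had an adjusted p-value of 0.12 with limma. With median-of-ratios scaling these were 0.77, 0.90 and 1.01, and after trend removal 0.24, 0.30 and 0.45. Lamtor2, for example, was at 21.70 and 18.34 TPM in +/+ and at 49.07 and 52.39 TPM in Chd5-/- NSCs, with no overlap. Flcn, which acts on the Rag GTPases, was at 10.53 and 6.85 TPM and at 21.25 and 24.27 TPM, a log2 fold change of 1.32 that was 0.61 after trend removal. The 1 lower gene was the GTPase Rragb, at 70.90 and 65.33 TPM in +/+ and at 32.05 and 40.18 TPM in Chd5-/- NSCs. Its log2 fold change of -0.91 (adjusted p-value 0.129 with limma) became -1.31 with median-of-ratios scaling and was -0.89 after trend removal.

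Of 10 inhibitors of the amino acid branch tested, 6 passed as higher and 0 as lower, with a median log2 fold change of 1.02. With median-of-ratios scaling 3 passed as higher, after trend removal 1 of 9, and 0 as lower in either. Sesn2, a leucine sensor that restrains complex 1, was at 6.02 and 4.85 TPM in +/+ and at 23.37 and 12.57 TPM in Chd5-/- NSCs. Nprl2, a subunit of the GATOR1 complex that turns the Rag GTPases off, was at 9.49 and 5.99 TPM and at 19.69 and 19.55 TPM. Both had no overlap between genotypes, with log2 fold changes of 1.51 and 1.27 and adjusted p-values of 0.128 and 0.126 with limma. With median-of-ratios scaling these were 1.13 and 0.89, and after trend removal 0.58 and 0.63.

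Growth factor signals reach the TSC complex through PI3 kinase and Akt. Of the 12 input genes, 5 passed as higher and 0 as lower, with a median log2 fold change of 0.21. With median-of-ratios scaling the median was -0.20, with 3 passing as higher (Irs2, Pik3r2 and Akt1) and 3 as lower (Insr, Irs1 and Pdpk1), and after trend removal 1 passed each way (Irs2 and Irs1). Akt1, the kinase that phosphorylates Tsc2 and Akt1s1, was at 18.27 and 13.73 TPM in +/+ and at 44.08 and 36.95 TPM in Chd5-/- NSCs (log2 fold change 1.30, adjusted p-value 0.12 with limma). It was 0.90 with median-of-ratios scaling and 0.32 after trend removal. Pik3r2, a regulatory subunit of PI3 kinase, was at 7.92 and 6.74 TPM and at 17.52 and 27.14 TPM, a log2 fold change of 1.46 that was 0.48 after trend removal. The insulin receptor substrates lay in opposite directions. Irs2 was at 1.2 and 0.79 TPM in +/+ and at 4.66 and 4.75 TPM in Chd5-/- NSCs, and Irs1 was at 48.45 and 51.41 TPM and at 37.39 and 29.25 TPM. Their log2 fold changes were 1.52 and -0.58, with median-of-ratios scaling 1.25 and -0.98 and after trend removal 0.77 and -0.99. Of 5 brakes on this branch tested, 1 passed as higher and 0 as lower, and 0 passed with median-of-ratios scaling or after trend removal. It was Inppl1, a lipid phosphatase, with a log2 fold change of 0.94 (adjusted p-value 0.134 with limma) that was 0.53 with median-of-ratios scaling and 0.12 after trend removal.

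Energy and stress signals act on the TSC complex and on Rptor through AMP-activated kinase. Of 11 such genes, 3 passed as higher and 0 as lower, with a median log2 fold change of 0.16. With median-of-ratios scaling the median was -0.23, with 2 passing as higher and 1 as lower, and after trend removal 1 and 0. Ddit4, a stress-induced inhibitor of complex 1, was at 45.76 and 30.88 TPM in +/+ and at 77.79 and 128.48 TPM in Chd5-/- NSCs (log2 fold change 1.39, adjusted p-value 0.128 with limma). It was 0.98 with median-of-ratios scaling and 0.42 after trend removal. Stk11, which encodes the upstream kinase LKB1, was at 22.49 and 17.38 TPM and at 47.76 and 48.97 TPM, a log2 fold change of 1.25 that was 0.27 after trend removal. Its partner Cab39 was at 156.67 and 188.67 TPM in +/+ and at 145.44 and 131.02 TPM in Chd5-/- NSCs, lower without overlap. Its log2 fold change was -0.32 (unadjusted p-value 0.216), and -0.73 with median-of-ratios scaling (unadjusted p-value 0.0338).

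Downstream of the kinase, 5 of 9 translation effectors passed as higher and 0 as lower, with a median log2 fold change of 0.90. With median-of-ratios scaling 0 passed as higher and 1 (Eif4e) as lower, with a median of 0.48, and after trend removal 0 passed in either direction. Eef2k, the kinase that slows elongation, was at 11.48 and 10.10 TPM in +/+ and at 16.16 and 40.51 TPM in Chd5-/- NSCs, and its log2 fold change of 1.18 was 0.54 without Chd5-/- replicate 2. Eif4e, the cap-binding factor that complex 1 sets free, was at 224.24 and 242.87 TPM in +/+ and at 194.06 and 113.39 TPM in Chd5-/- NSCs. Its log2 fold change was -0.65 (unadjusted p-value 0.092), from -0.27 without Chd5-/- replicate 2 to -1.04 without Chd5-/- replicate 1, and -1.06 with median-of-ratios scaling (unadjusted p-value 0.0249).

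Of 10 other substrates and targets of the complexes, 6 passed as higher and 0 as lower, with a median log2 fold change of 1.03. With median-of-ratios scaling 3 passed as higher (Ulk1, Atg13 and Lpin1), after trend removal 1 (Lpin1), and 0 as lower in either. Lpin1, a phosphatidate phosphatase that complex 1 phosphorylates, was at 20.33 and 18.20 TPM in +/+ and at 56.13 and 59.34 TPM in Chd5-/- NSCs. Its log2 fold change of 1.54 had the lowest unadjusted p-value of the genes of these lists named here (0.000812, adjusted 0.12 with limma), and it was 1.13 with median-of-ratios scaling and 1.18 after trend removal. The autophagy genes Ulk1 and Atg13, whose products complex 1 phosphorylates to hold autophagy down, had log2 fold changes of 1.28 and 1.10, with adjusted p-values of 0.122 and 0.124 with limma. After trend removal the fold changes were 0.42 and 0.52. Ndrg1, a target of the complex 2 branch, was at 1.41 and 3.35 TPM in +/+ and at 79.23 and 6.75 TPM in Chd5-/- NSCs, and its log2 fold change of 2.95 was 1.26 without Chd5-/- replicate 1.

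**Figure D5:**
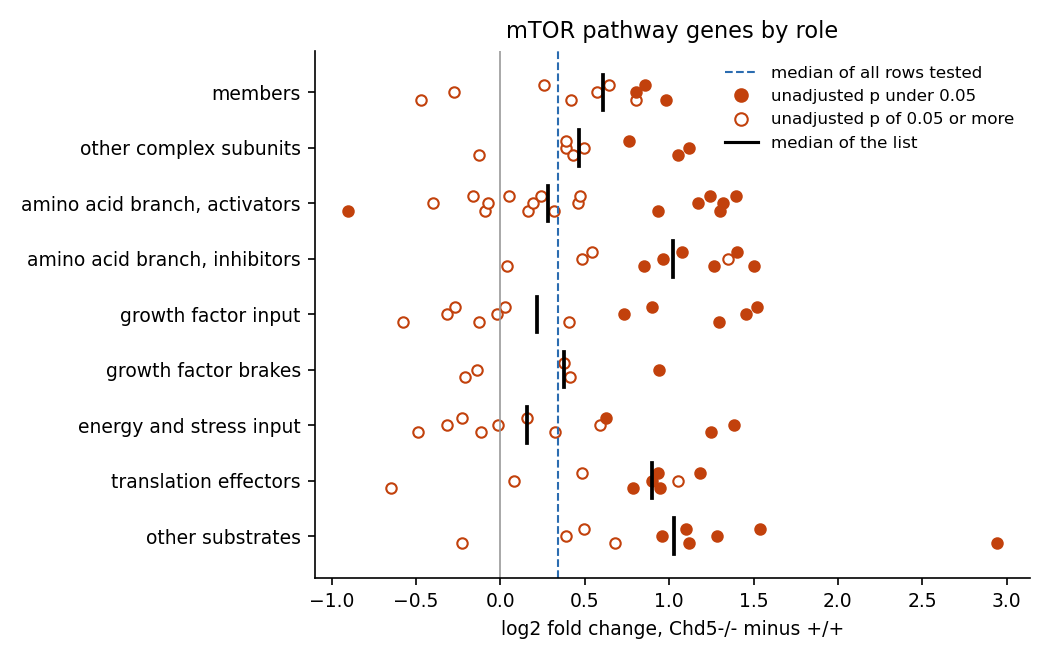
Log2 fold change (Chd5-/- minus +/+) of each tested gene of the members and of 8 lists of other pathway genes, filled where the unadjusted p-value is under 0.05, with a line at each list's median and a dashed line at the median of all rows (0.34). The amino acid branch inhibitors, translation effectors and other substrates have medians of 1.02, 0.90 and 1.03, and the energy and stress inputs one of 0.16.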

How the data were processed

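RNA of 2 +/+ and 2 Chd5-/- NSC cultures was sequenced by the authors, who deposited TPM values for 18169 rows. Per the labels, the build was mm10 and the tools included Bowtie2 2.2.3 and RSEM 1.2.20, while the gene annotation and strand setting are not given in the sources used here. Depth cannot be read from TPM. From the deposited TPM, log2(TPM + 1) was tested with limma 3.58.1 in R 4.3.3 (eBayes with a trend, two-sided, no covariates) over 12576 rows whose mean reached 1 TPM, with Benjamini-Hochberg adjustment over all of them. Fold changes on this scale understate those of low genes.

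The members and lists were chosen with earlier results of these data known. Genes named beyond the members were, in each list, the highest positive and the lowest negative fold change without overlap and every gene with an unadjusted p-value under 0.01, and the 3 rows nearest to the member with the largest fold change. Insr and Pdpk1 were named after their values were seen.

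GC content, length and coordinates came from GENCODE M21 of GRCm38, found for 93.0% of rows tested, which may not be the authors' annotation. Trends were removed from each sample by loess (span 0.5). Alternatives were pseudocounts of 0.1 and 5, no minimum or 10 TPM, other scalings, a replicate block, eBayes without the trend or robust, and leaving out each sample. Scripts were tested on simulated data, and used Python 3.11.15, pandas 2.3.3, numpy 2.4.6, scipy 1.17.1 and matplotlib 3.10.9.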

Additional observations from a re-analysis of the deposited data

How the results depend on the processing

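The count of members called at an adjusted p-value under 0.05 with limma was 0 under all 17 alternatives. The count of members with an unadjusted p-value under 0.05 was 3 as reported. It was 2 with median-of-ratios scaling (both lower, where the 3 were higher). With quantile normalization, removal of GC and length trends or a replicate block it was 1, and with a replicate block and trend removal together it was 0. A minimum of 10 TPM gave 1 of the 8 members tested, since it left out Rptor and Rps6kb2, which were among the 3. Over all 12576 rows the counts were 1103 higher and 1021 lower with quantile normalization, and 2111 and 178 with a replicate block. They were 1512 and 246 of 8199 rows with a minimum of 10 TPM. With a replicate block and trend removal together they were 401 and 413 of 11700 rows. The members' count fell with either +/+ replicate or Chd5-/- replicate 2 left out, and rose without Chd5-/- replicate 1. Over all rows the counts fell with either +/+ replicate left out and rose with either Chd5-/- replicate left out. The count of other pathway genes, given next, moved as all rows did without either +/+ replicate and without Chd5-/- replicate 1. Its range with 1 sample left out therefore does not set these genes apart from all rows. The count of other pathway genes, 36 as reported (35 higher, 1 lower), was 23 with median-of-ratios scaling (16 higher, 7 lower), 20 with quantile normalization, 8 with trend removal (6 higher, 2 lower) and 4 with trend removal and the replicate block, and ran from 8 (without +/+ replicate 2) to 43 (without Chd5-/- replicate 1) when 1 sample was left out. It was 20 without +/+ replicate 1.

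The members' median log2 fold change, 0.61 as reported, was 0.22 with median-of-ratios scaling, 0.10 with quantile normalization, 0.40 when TPM was rescaled leaving out the top 20 rows, and -0.054 with trend removal, with or without the replicate block. It ran from 0.31 (without Chd5-/- replicate 2) to 0.81 (without Chd5-/- replicate 1). Directions that turned were those of Mtor (quantile -0.073, trend removal -0.23), Rictor (median-of-ratios -0.12, quantile -0.27), Mlst8 (trend removal -0.066), Akt1s1 (trend removal -0.042) and Tsc2 (trend removal -0.073), the same with the replicate block added. With trend removal the log2 ratio of Rictor to Rptor turned to 0.15 and that of Akt1s1 to Rptor to -0.14. With 1 sample left out, that of Akt1s1 to Rptor ran from -0.13 to 0.32, at -0.049 without +/+ replicate 2, and that of Mlst8 to Mtor from -0.041 to 0.54. The cause was not tested for any of these.

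Same-numbered samples deviated from their group means with a correlation of -0.15, so the numbers were not taken to pair them, and the replicate block lowered the rows called over the whole table from 7 to 0. A block with crossed numbers, added after the data were seen, called 5. Leaving out 1 sample left a lone sample in a genotype, which the fit assumed to vary like the others. The rows called over the whole table then rose with either Chd5-/- replicate left out and fell with either +/+ replicate left out. Some of the other pathway genes named passed the adjusted threshold without a Chd5-/- replicate. They had been picked by their values in these same samples, so this adds no support.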
